A study of Mus musculus with 16 samples.

Results

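The genes described here are 9 ligands of the tumour necrosis factor (TNF) superfamily (Fasl, Tnfsf4, Tnfsf8, Tnfsf9, Tnfsf10, Tnfsf11, Tnfsf14, Cd40lg and Cd70) and osteoprotegerin (Tnfrsf11b), 10 of the 19938 genes measured. They were chosen by gene symbol in the platform annotation. Each had 1 probe set, and all 10 were kept, since no filter on low values was applied. They were followed in cloned CD8 T cells of the mouse, a conventional clone that the labels call sensitive to cyclosporine and an unconventional clone that they call resistant. Every group had been activated with plate-bound antibody 145-2c11 against CD3, a part of the T cell receptor complex, after growth in a cytokine mixture that the activation medium lacked. In each clone 1 group received anti-CD3 alone and 1 group received anti-CD3 with 1 ug per ml cyclosporine A, with 4 Affymetrix whole-transcript arrays per group and 16 in all. Each cell type is represented by 1 clone, so a difference between the clones is not a difference between classes of T cells. Resting cells were not analysed here, so no value shows what activation itself changed. Nothing in the labels says that replicates were separate cultures, so the p-values cover the spread among these arrays alone, and that spread could be technical. In bulk RNA, fewer cells that express a gene and less of its RNA per cell cannot be told apart.

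TNF superfamily ligands are mostly membrane proteins that act as trimers and signal to receptors on neighbouring cells. Fas ligand and TRAIL engage receptors with a death domain and can start apoptosis, OX40 ligand, 4-1BB ligand, LIGHT and the CD27, CD30 and CD40 ligands act in co-stimulation, and RANK ligand drives the formation of bone-resorbing osteoclasts. Osteoprotegerin is a secreted receptor without a transmembrane part that captures RANK ligand and can also bind TRAIL. Cyclosporine A, bound to cyclophilin, inhibits the phosphatase calcineurin and so the activation of NFAT transcription factors, which are known to act on the Fasl and Cd40lg genes in T cells.

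Levels are the deposited log2 expression values, so 1 unit is a 2-fold step, and each ± is an SD over n = 4 arrays. A difference is given on the log2 scale with its standard error (SE) from a limma model of all genes. It was called at an adjusted p (Benjamini-Hochberg over all genes) under 0.05. Olfactory receptor genes, which T cells are not known to express, served to read low levels: 95% of 1027 such genes had a mean level under 4.58. Probe sets differ in background, so this limit is a rough guide. Above it in all 4 groups were 4 of the 10 genes (Fasl, Tnfsf9, Tnfsf11 and Tnfrsf11b), 3 were above it in some groups (Tnfsf4, Tnfsf10 and Tnfsf14) and 3 in none (Tnfsf8, Cd40lg and Cd70).

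The T cell label was checked on markers, of which 10 of 11 were measured. The chains Cd3d, Cd3e, Cd3g and Cd247, the signalling genes Zap70 and Lat and the co-receptor genes Cd8a and Cd8b1 were well above the limit in both clones. In the group means the adhesion receptor Cd2 lay between 3.99 and 4.25, under the limit, and Cd5 between 4.83 and 5.12, little above it. Cd4 lay between 4.21 and 4.32. Foxp3, listed with Cd4 as a marker of regulatory T cells, lay between 4.83 and 4.91, a little above the limit in every group. Cd8a was lower in the unconventional clone by 2.19 with anti-CD3 alone (-2.19, SE 0.08, adjusted p = 2.0e-14). Arrays of 1 group correlated at 0.995 to 0.998 over probe sets. Single arrays still differed in weight. Leaving out conventional replicate 2 with cyclosporine A raised the genes called between the clones with the drug from 8821 to 9258. Leaving out any other array of those groups gave 8043 to 8451. Without unconventional anti-CD3 replicate 1, the genes called for the drug in the conventional clone rose from 6269 to 6493.

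**Figure D1:**
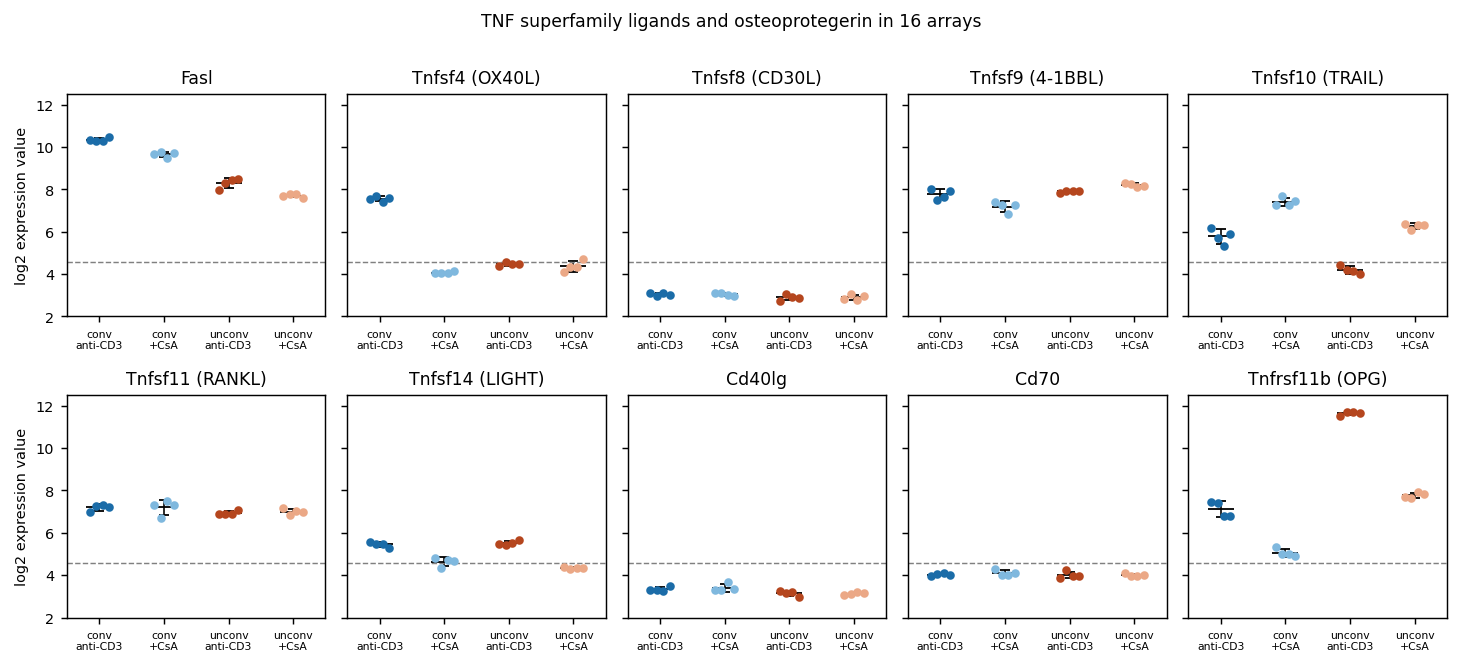
Level of each gene on every array, as log2 expression value on the y axis, by clone (conv, conventional; unconv, unconventional) and treatment (+CsA, anti-CD3 with cyclosporine A) on the x axis. Points are the 4 arrays of a group, bars the mean ± SD, and the dashed line the limit of 4.58 read from olfactory receptor genes; Tnfrsf11b spans 6.59 between its group means, while Tnfsf8, Cd40lg and Cd70 stay under the line.

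Among the death ligands, Fasl fell and Tnfsf10 rose under cyclosporine A in both clones. Fasl, the ligand by which cytotoxic T cells kill Fas-bearing targets, read 10.35, 10.27, 10.28 and 10.47 with anti-CD3 alone and 9.65, 9.76, 9.50 and 9.70 with the drug in the conventional clone. The unconventional clone read 7.97, 8.32, 8.42 and 8.50 without the drug and 7.70, 7.78, 7.76 and 7.59 with it. The 4 groups were separate, and the clones lay further apart than the treatments. The drug changed Fasl by -0.69 (SE 0.10, adjusted p = 7.8e-06) in the conventional clone and by -0.60 (SE 0.10, adjusted p = 7.3e-05) in the unconventional clone. These effects differed by 0.09 (SE 0.14, adjusted p = 0.7743), with a 95% interval of -0.19 to 0.38. Fasl was 4.11-fold lower in the unconventional clone with anti-CD3 alone (-2.04, SE 0.10, adjusted p = 9.1e-13) and 3.85-fold lower with the drug (-1.95, SE 0.10, adjusted p = 1.1e-12). With cyclosporine A the conventional clone still had more Fasl RNA signal, at 9.65 ± 0.11 (SD, n = 4), than the unconventional clone without it, at 8.30 ± 0.23 (SD, n = 4).

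Tnfsf10 encodes TRAIL, which binds death and decoy receptors on many cell types. It read 6.17, 5.70, 5.34 and 5.89 with anti-CD3 alone and 7.27, 7.67, 7.26 and 7.44 with cyclosporine A in the conventional clone. The unconventional clone read 4.42, 4.18, 4.14 and 3.99 without the drug, all under the limit, and 6.38, 6.09, 6.33 and 6.32 with it. Every array with the drug was above every array without it in the same clone. The rise was 3.10-fold in the conventional clone (1.63, SE 0.14, adjusted p = 9.8e-09) and 4.29-fold in the unconventional clone (2.10, SE 0.14, adjusted p = 7.5e-10), where the start near background makes it a lower limit. The difference between these effects did not pass the test (0.47, SE 0.20, adjusted p = 0.1291), although without conventional anti-CD3 replicate 3 it did (0.61, adjusted p = 0.0178). Tnfsf10 was lower in the unconventional clone by 1.60 with anti-CD3 alone (-1.60, SE 0.14, adjusted p = 9.1e-09), a lower limit because that group was under the limit of background, and by 1.13 with the drug (-1.13, SE 0.14, adjusted p = 9.1e-07). In the order of levels, the unconventional clone with the drug (6.28 ± 0.13, SD, n = 4) and the conventional clone without it (5.78 ± 0.35, SD, n = 4) overlapped, and the other neighbours were separate.

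Of the co-stimulatory ligands, Tnfsf4 had the largest fall. It encodes the ligand of OX40 and is best known from antigen-presenting cells, though activated T cells can express it. In the conventional clone it read 7.56, 7.68, 7.39 and 7.59 with anti-CD3 alone and 4.03, 4.06, 4.05 and 4.14 with cyclosporine A. Tnfsf4 read 4.39, 4.55, 4.50 and 4.46 without the drug and 4.08, 4.35, 4.35 and 4.70 with it in the unconventional clone. The conventional clone without the drug was the group above the limit, and the means of the other 3 groups lay under it. The fall in the conventional clone was 11.2-fold (-3.49, SE 0.10, adjusted p = 1.3e-15), a lower limit because it ended at background. In the unconventional clone the difference was -0.11 (SE 0.10, adjusted p = 0.5541; 95% interval -0.31 to 0.10), between a pair of background levels. The effects differed between clones by 3.38 (SE 0.14, adjusted p = 8.2e-12). With anti-CD3 alone Tnfsf4 was 8.46-fold lower in the unconventional clone (-3.08, SE 0.10, adjusted p = 2.2e-15), again a lower limit, since that clone was at background. The opposite difference with the drug, 0.30 (SE 0.10, adjusted p = 0.0177), lay under the limit on both sides and was lost without unconventional replicate 4 with the drug (0.19, adjusted p = 0.0846).

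Tnfsf9, the ligand of 4-1BB, fell with the drug in the conventional clone and was the ligand whose direction parted between the clones. The conventional clone read 8.03, 7.52, 7.66 and 7.93 with anti-CD3 alone and 7.38, 7.27, 6.82 and 7.25 with cyclosporine A. The unconventional clone read 7.85, 7.92, 7.90 and 7.93 without the drug and 8.29, 8.23, 8.09 and 8.17 with it. The arrays were separate within each clone, lower with the drug in the former and higher in the latter. The conventional clone changed by -0.61 (SE 0.11, adjusted p = 2.3e-04). The unconventional clone's difference of 0.30 (SE 0.11, adjusted p = 0.0650) did not pass the test. It passed without conventional anti-CD3 replicate 1 (adjusted p = 0.0468) or 2 (adjusted p = 0.0452), or without conventional replicate 3 with the drug (adjusted p = 0.0227), each with the value still at 0.30. It also passed with quantile normalization (adjusted p = 0.0321), array weights (0.0323), dim genes removed (0.0380), trend and robust moderation (0.0492) and only the 2 groups compared (0.0042), with values from 0.29 to 0.32. The difference between the effects did pass, at 0.90 (SE 0.16, adjusted p = 3.8e-04). The clones differed by 0.12 (SE 0.11, adjusted p = 0.4411) with anti-CD3 alone and by 1.02 (SE 0.11, adjusted p = 2.3e-07), 2.02-fold, with the drug.

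Tnfsf14 encodes LIGHT, which signals through HVEM and the lymphotoxin β receptor. It read 5.57, 5.49, 5.48 and 5.28 with anti-CD3 alone and 4.81, 4.32, 4.73 and 4.66 with cyclosporine A in the conventional clone. The unconventional clone read 5.47, 5.41, 5.50 and 5.66 without the drug and 4.37, 4.29, 4.35 and 4.34 with it. The groups without the drug overlapped, and every array with the drug was lower than every array without it. The changes were -0.82 (SE 0.09, adjusted p = 4.9e-07) and, 2.25-fold, -1.17 (SE 0.09, adjusted p = 1.0e-08), both ending near or under the limit, so that the latter is a lower limit. Their difference of -0.35 (SE 0.13, adjusted p = 0.0800) did not pass the test, but it did without conventional replicate 2 with the drug (-0.45, adjusted p = 0.0063). Between clones Tnfsf14 differed by 0.06 (SE 0.09, adjusted p = 0.6572) with anti-CD3 alone. With the drug the difference was -0.29 (SE 0.09, adjusted p = 0.0139), with overlapping arrays, and it was lost without conventional replicate 1 with the drug (-0.23, adjusted p = 0.0601), with quantile normalization (-0.21, adjusted p = 0.0654) and with cyclic loess (-0.18, adjusted p = 0.1096).

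The remaining co-stimulatory ligands gave no signal above the limit in any group. Cd40lg, the CD40 ligand that T cells use to help B cells, lay between 2.98 and 3.68 over the 16 arrays, Cd70, the ligand of CD27, between 3.86 and 4.28, and Tnfsf8, the ligand of CD30, between 2.75 and 3.11. None of these 3 genes was called for the drug in either clone, and their differences lay between -0.01 and 0.07. Their 95% intervals reached from -0.19 (Cd40lg, unconventional clone) to 0.24 (Cd40lg and Cd70, conventional clone). At such levels the arrays compress differences, so a change in RNA could go undetected. Cd40lg was called lower in the unconventional clone with the drug (-0.27, SE 0.09, adjusted p = 0.0164), and the call was lost without conventional replicate 3 with the drug (-0.18, adjusted p = 0.0787), with quantile normalization (-0.18, adjusted p = 0.1103) and with cyclic loess (-0.19, adjusted p = 0.1146).

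RANK ligand and its decoy receptor are described together here. Tnfsf11, the gene of RANK ligand, read 6.97, 7.25, 7.33 and 7.23 with anti-CD3 alone and 7.31, 6.70, 7.51 and 7.33 with cyclosporine A in the conventional clone. The unconventional clone read 6.87, 6.90, 6.87 and 7.07 without the drug and 7.15, 6.85, 7.03 and 6.99 with it. All 4 groups overlapped their neighbours in the order of levels. The drug's difference was 0.01 (SE 0.13, adjusted p = 0.9574; 95% interval -0.26 to 0.29) in the conventional clone and 0.07 (SE 0.13, adjusted p = 0.7905; -0.20 to 0.34) in the unconventional clone. The clones differed by -0.27 (SE 0.13, adjusted p = 0.1058) with anti-CD3 alone and by -0.21 (SE 0.13, adjusted p = 0.1987) with the drug. These clone differences passed without conventional replicate 2 with the drug, at -0.27 (adjusted p = 0.0178) and -0.38 (adjusted p = 0.0025), and the former also without conventional anti-CD3 replicate 1 (-0.34, adjusted p = 0.0464). The difference with anti-CD3 alone also passed with only the 2 groups compared (-0.27, adjusted p = 0.0303), and that with the drug with array weights (-0.27, adjusted p = 0.0478).

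Tnfrsf11b, the gene of osteoprotegerin, had the widest range of the 10 genes. Osteoprotegerin is usually described in osteoblasts and other stromal cells. In the unconventional clone it read 11.49, 11.72, 11.70 and 11.65 with anti-CD3 alone and 7.69, 7.65, 7.91 and 7.82 with cyclosporine A. In the conventional clone it read 7.47, 7.42, 6.81 and 6.81 without the drug and 5.32, 4.99, 5.00 and 4.91 with it. All 4 groups were separate, and the unconventional clone with the drug still lay above the conventional clone without it. The drug lowered it 14.7-fold in the unconventional clone (-3.87, SE 0.13, adjusted p = 5.7e-14) and 4.21-fold in the conventional clone (-2.07, SE 0.13, adjusted p = 2.0e-10). The fall was larger in the unconventional clone (-1.80, SE 0.19, adjusted p = 9.3e-07), although the conventional clone's arrays ended closer to the limit, where differences are compressed. Tnfrsf11b was 22.8-fold higher in the unconventional clone with anti-CD3 alone (4.51, SE 0.13, adjusted p = 7.0e-16) and 6.55-fold higher with the drug (2.71, SE 0.13, adjusted p = 1.2e-12).

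Markers of stromal cells and osteoblasts were set beside Tnfrsf11b, with 8 of 10 measured. The summed level of the list, dominated by Thy1, which T cells also express, ran from 11.98 to 12.07 with anti-CD3 alone over the conventional clone's arrays, and from 11.69 to 11.87 over the unconventional clone's. In that comparison 0 of 8 were called higher and 3 lower in the unconventional clone (Lum, Col1a1 and Col1a2), where Tnfrsf11b was higher. Of all genes, 20.3% were called higher there and 21.7% lower. With the drug, where Tnfrsf11b was higher too, 2 were called higher (Dcn and Thy1) and 0 lower in the unconventional clone, against 21.3% and 23.0% of all genes. The summed level then ran from 11.07 to 11.23 against 10.73 to 10.87 in the conventional clone. Fibroblast markers Pdgfra, Pdgfrb and Dcn had group means between 3.91 and 4.49, under the limit, while the collagen genes Col1a1 (6.06 to 6.68), Col1a2 (5.79 to 6.15) and Col3a1 (5.71 to 5.98) lay above it in every group. The proteoglycan gene Lum fell with the drug, as Tnfrsf11b did, with differences of -5.71 (SE 0.15, adjusted p = 5.4e-16) in the conventional clone and -2.14 (SE 0.15, adjusted p = 1.9e-09) in the unconventional clone. Both are lower limits, since Lum ended under the limit, at 4.16 and 4.00. Of 8 macrophage and dendritic cell markers, Itgax and Cd68 were well above the limit, and the group means of Lyz2, Cd14, Adgre1, Itgam, Mrc1 and Csf1r stayed under it. Of these 8, 2 were called higher with the drug in each clone (Itgax and Cd68), against 15.9% of all genes in the conventional and 12.6% in the unconventional clone. The summed level, in which Itgax was the highest gene in every group, ran from 9.43 to 9.59 without the drug and from 10.50 to 10.70 with it in the conventional clone. It ran from 9.91 to 10.25 and from 10.59 to 10.85 in the unconventional clone. Between the clones, Cd68 was higher in the unconventional clone, as Tnfrsf11b was, with anti-CD3 alone (1.44, SE 0.12, adjusted p = 6.1e-09) and with the drug (1.08, SE 0.12, adjusted p = 2.8e-07). Itgax was higher there with anti-CD3 alone (0.37, SE 0.09, adjusted p = 0.0018). With the drug Adgre1 was called lower in the unconventional than in the conventional clone, at 3.52 against 3.70, both under the limit. That call was lost in many alternatives, among them quantile normalization (-0.09, adjusted p = 0.3440) and cyclic loess (-0.09, adjusted p = 0.3796). Among 4 endothelial markers, Pecam1, which leukocytes also express, was higher in the unconventional clone, as Tnfrsf11b was, at 8.73 ± 0.08 against 5.29 ± 0.27 (SD, n = 4) with anti-CD3 alone (3.44, SE 0.14, adjusted p = 5.5e-14). With the drug it was higher there too (3.37, SE 0.14, adjusted p = 5.0e-14). It was the 1 endothelial marker of 4 called in that direction, against 20.3% of all genes with anti-CD3 alone and 21.3% with the drug. The summed level ran from 6.12 to 6.54 in the conventional clone and from 8.45 to 8.92 in the unconventional clone. The 3 NK cell markers had group means between 3.05 and 4.46, with none called for the drug. The 5 B cell markers had group means between 3.09 and 5.16, with Cd79a called higher with the drug in the unconventional clone, against 12.6% of all genes. Cd79a stood there at 3.15 and 3.53 without and with the drug, under the limit. Its call was lost with median centring (0.33, adjusted p = 0.0541) and without unconventional replicate 3 with the drug (0.34, adjusted p = 0.0565). With anti-CD3 alone Cd79a was called lower in the unconventional clone (-0.34), a call lost with quantile normalization (-0.28, adjusted p = 0.0639). The part of these markers in the results above was not tested.

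Counted together, 6 of the 10 genes were called with the drug in the conventional clone, 5 lower (Fasl, Tnfsf4, Tnfsf9, Tnfsf14 and Tnfrsf11b) and 1 higher (Tnfsf10), where 31.4% of all genes were called, 15.5% lower and 15.9% higher. In the unconventional clone 4 were called, 3 lower (Fasl, Tnfsf14 and Tnfrsf11b) and 1 higher (Tnfsf10), against 24.9% of all genes, 12.3% lower and 12.6% higher. Called changes of at least 2-fold numbered 3 in each clone, against 5.06% and 2.30% of all genes. The median difference over the 10 genes was -0.30 in the conventional clone and -0.00 in the unconventional clone, against 0.02 over all genes in both. Groups had no overlapping arrays for 6 of the 10 in the conventional clone (30.5% of all genes) and for 5 in the unconventional clone (27.2%). A lower level in both clones was called for 3 of the 10 genes (8.46% of all genes) and a higher level in both for 1 (7.81%). These comparisons share no arrays, though they use 1 estimate of the spread per gene. The difference of effects was called for 3 of the 10 (Tnfsf4, Tnfsf9 and Tnfrsf11b), against 16.3% of all genes. It was higher for 2 (8.51% of all genes) and lower for 1 (7.78%), and at least 2-fold for 2 (3.12%).

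**Figure D2:**
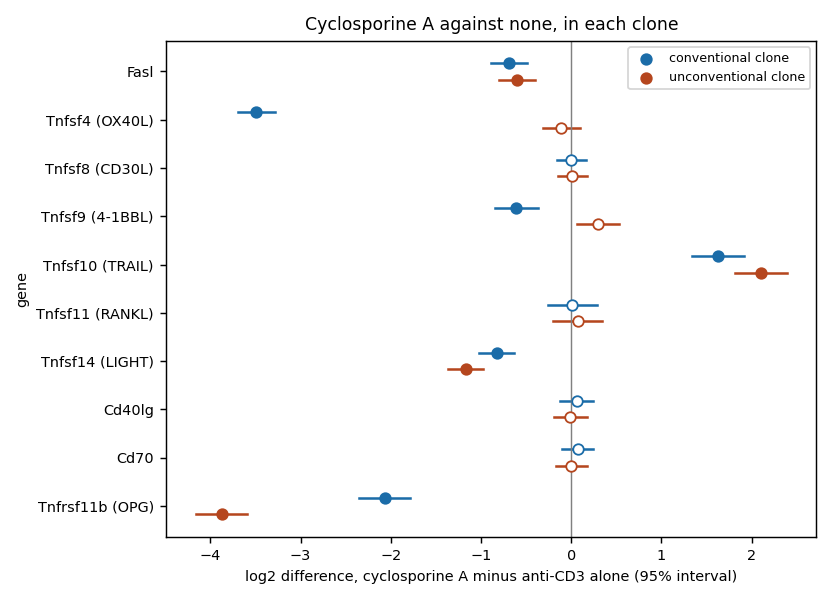
Log2 difference with cyclosporine A against anti-CD3 alone on the x axis for each of the 10 genes on the y axis, in the conventional (blue) and unconventional (red) clone. Points are estimates from the limma model, bars their 95% intervals, and filled points are called; Tnfsf4 falls by 3.49 in the conventional clone and has an open point at -0.11 in the unconventional clone, Tnfrsf11b is lower and Tnfsf10 higher in both.

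Between the clones, 4 of the 10 genes were called with anti-CD3 alone, a share close to the 42.0% of all genes that were called. There 1 was higher (20.3% of all genes) and 3 lower (21.7%), and 5 had no overlapping arrays (38.6%). With cyclosporine A 7 were called, against 44.2%, with 3 higher (21.3%) and 4 lower (23.0%), and 5 had no overlapping arrays (42.2%). With quantile normalization and with cyclic loess 5 were called there, 3 higher and 2 lower, since Tnfsf14 and Cd40lg lost their calls. Of the calls with the drug, those of Tnfsf4 and Cd40lg lay between means under the limit in both clones. The Tnfsf14 means with the drug were 4.63 in the conventional and 4.34 in the unconventional clone, the latter under the limit. All 4 calls with anti-CD3 alone were at least 2-fold (7.74% of all genes): Fasl, Tnfsf4 and Tnfsf10 lower and Tnfrsf11b higher in the unconventional clone. With the drug 4 of the 7 were at least 2-fold (9.84% of all genes), namely Fasl and Tnfsf10 lower and Tnfsf9 and Tnfrsf11b higher. Of all genes called with anti-CD3 alone, 48.3% were higher in the unconventional clone, or 59.9% when arrays were centred on their medians, and the 10 genes had the same calls under that centring. The comparisons between clones share their arrays with those of the drug, so they are not separate evidence.

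**Figure D3:**
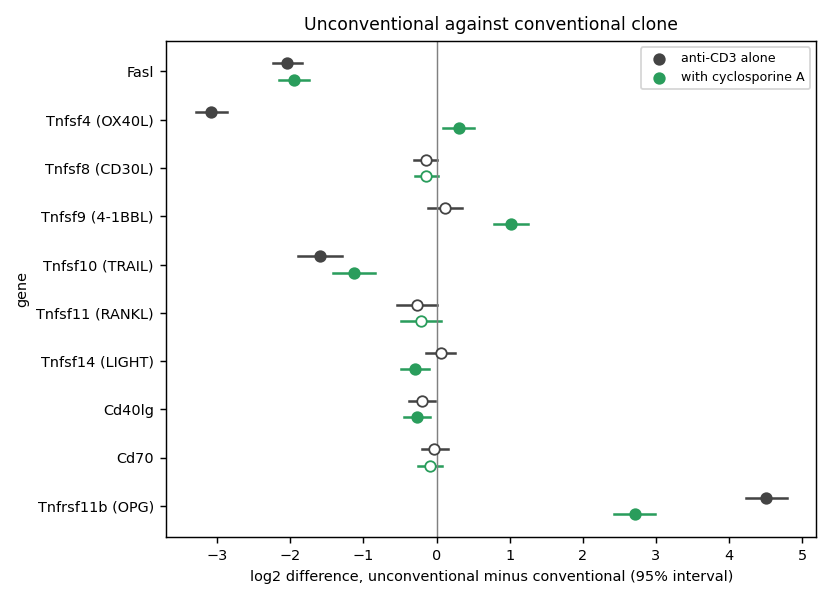
Log2 difference of the unconventional against the conventional clone on the x axis for each gene on the y axis, with anti-CD3 alone (grey) and with cyclosporine A (green). Points are estimates, bars 95% intervals, and filled points are called; Tnfrsf11b is higher by 4.51 and 2.71, Fasl is lower by about as much in both conditions, at -2.04 and -1.95, and Tnfsf4 is lower with anti-CD3 alone.

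Sequence before the RefSeq transcription start was in the reference table for 5 of the 10 genes (Fasl, Tnfsf8, Tnfsf10, Tnfsf11 and Tnfsf14). The 250 bases upstream are printed for the genes that moved the same way in both clones, Fasl and Tnfsf14 (lower) and Tnfsf10 (higher), and for Tnfsf11, which was not called for the drug. They are RefSeq sequence of build GRCm38.p6, 5′ to 3′ on the gene's strand, and capitals mark matches to the NFAT core GGAAA on either strand (TTTCC on the other) and to the AP-1 motif TGANTCA, which reads as the same motif on both strands. The motifs do not overlap each other in these windows.
Fasl, chr1:161788496-161788745, minus strand: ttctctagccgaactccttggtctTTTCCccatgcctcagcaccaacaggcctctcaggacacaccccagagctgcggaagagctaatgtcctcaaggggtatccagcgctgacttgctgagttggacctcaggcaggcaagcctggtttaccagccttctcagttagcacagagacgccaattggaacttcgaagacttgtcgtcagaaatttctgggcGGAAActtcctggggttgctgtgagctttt
Tnfsf14, chr17:57194182-57194431, minus strand: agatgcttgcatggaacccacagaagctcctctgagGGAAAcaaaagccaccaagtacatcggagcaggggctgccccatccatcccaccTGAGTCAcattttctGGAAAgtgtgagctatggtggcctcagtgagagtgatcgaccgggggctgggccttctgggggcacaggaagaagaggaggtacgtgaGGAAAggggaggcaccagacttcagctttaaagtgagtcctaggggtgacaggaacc
Tnfsf10, chr3:27316827-27317076, plus strand: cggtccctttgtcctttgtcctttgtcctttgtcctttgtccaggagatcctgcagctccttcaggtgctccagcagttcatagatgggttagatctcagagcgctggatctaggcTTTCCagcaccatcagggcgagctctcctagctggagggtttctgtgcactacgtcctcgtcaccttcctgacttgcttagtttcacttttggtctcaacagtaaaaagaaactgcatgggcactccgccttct
Tnfsf11, chr14:78308044-78308293, minus strand: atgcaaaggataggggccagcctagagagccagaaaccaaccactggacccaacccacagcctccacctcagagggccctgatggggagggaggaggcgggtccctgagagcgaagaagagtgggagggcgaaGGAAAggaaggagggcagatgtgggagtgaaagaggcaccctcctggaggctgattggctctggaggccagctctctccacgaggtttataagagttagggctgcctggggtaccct
The Tnfsf14 window held 3 matches to GGAAA and 1 to TGANTCA, the Fasl window 2 to GGAAA, and the Tnfsf10 and Tnfsf11 windows 1 each. Of 32851 mouse promoter windows of the same length, 55.6% held GGAAA on either strand, 21.4% held it at least 2 times and 6.7% held TGANTCA. The match of Fasl nearest to the start lay 30 to 26 bases upstream. Tnfsf11 also held TATAAA, on the opposite strand, 32 to 27 bases upstream, as did 12.4% of all windows on either strand. GTAAACA, the core motif of FOXO factors, was in none of the 5 windows and in 3.2% of all. A match shows letters only, and matches were found both in genes that changed and in Tnfsf11.

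Several of these genes are neighbours in the mouse genome (gene order of RefSeq, GRCm38.p6). On chromosome 1, Tnfsf4, Tnfsf18 (the ligand of GITR) and Fasl follow each other with no other coding gene between them. Tnfsf4 fell 11.2-fold with the drug in the conventional clone and Fasl 1.61-fold, while Tnfsf18 read between 3.17 and 3.26 in the group means, under the limit. On chromosome 17, Tnfsf9, Cd70 and Tnfsf14 follow each other. Cd70 was at background between a gene that differed between the clones in its response, Tnfsf9, and one lower in both, Tnfsf14. On chromosome 4, Tnfsf8 is next to Tnfsf15, whose group means lay between 4.73 and 4.99.

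Receptors of the ligands were read next. Of 12 measured, 2 were called lower and 0 higher with the drug in the conventional clone, and 3 lower and 1 higher in the unconventional clone, against 31.4% and 24.9% of all genes. Their median differences were -0.01 and 0.02. Tnfrsf10b, the TRAIL death receptor, was lower in both clones while its ligand was higher. It read 7.76, 8.01, 7.84 and 7.88 without and 6.94, 7.01, 6.76 and 6.98 with the drug in the conventional clone (-0.95, SE 0.08, adjusted p = 7.0e-09). The unconventional clone read 9.33, 9.09, 9.05 and 9.05 without and 8.11, 8.15, 8.22 and 8.23 with the drug (-0.95, SE 0.08, adjusted p = 2.0e-08). The arrays did not overlap in either clone, and the difference of the effects was 0.00 (SE 0.11; 95% interval -0.23 to 0.23). Tnfrsf10b was higher in the unconventional clone by 1.26 under both conditions (SE 0.08; adjusted p = 7.1e-11 with anti-CD3 alone and 4.6e-11 with the drug), the reverse of Tnfsf10. The decoy receptors Tnfrsf22 and Tnfrsf23 were under the limit, as was Fas, the receptor of Fasl, with group means between 3.80 and 4.34.

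Tnfrsf9 (4-1BB) was bright in every group, from 13.28 ± 0.01 to 12.87 ± 0.05 (SD, n = 4) with the drug in the conventional clone (-0.40, SE 0.06, adjusted p = 9.8e-06). In the unconventional clone it changed by -0.17 (SE 0.06, adjusted p = 0.0333), a call lost without any of 4 unconventional arrays, with values from -0.17 to -0.15, and with only the 2 groups compared (-0.17, adjusted p = 0.0637). The arrays were anti-CD3 replicates 2 and 4 and replicates 1 and 3 with the drug. Tnfrsf8 (CD30) was also bright, with group means between 11.46 and 11.53, and was not called for the drug, whereas its ligand was at background. Tnfrsf4 (OX40) changed by -0.81 (SE 0.12, adjusted p = 2.2e-05) in the unconventional clone, from 6.23 ± 0.27 to 5.42 ± 0.03 (SD, n = 4), and by -0.10 (SE 0.12, adjusted p = 0.6018) in the conventional clone. The effects differed by -0.71 (SE 0.16, adjusted p = 0.0044), so OX40 fell in the clone in which its ligand Tnfsf4 was at background. Tnfrsf14 (HVEM) rose in the unconventional clone by 0.38 (SE 0.11, adjusted p = 0.0141), but not without anti-CD3 replicate 1 (0.26, adjusted p = 0.0575) or replicate 4 with the drug (0.32, adjusted p = 0.0609), both of that clone. RANK (Tnfrsf11a), Ltbr, Cd40 and Cd27 were not called in any comparison, and Cd27 lay under the limit.

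**Figure D4:**
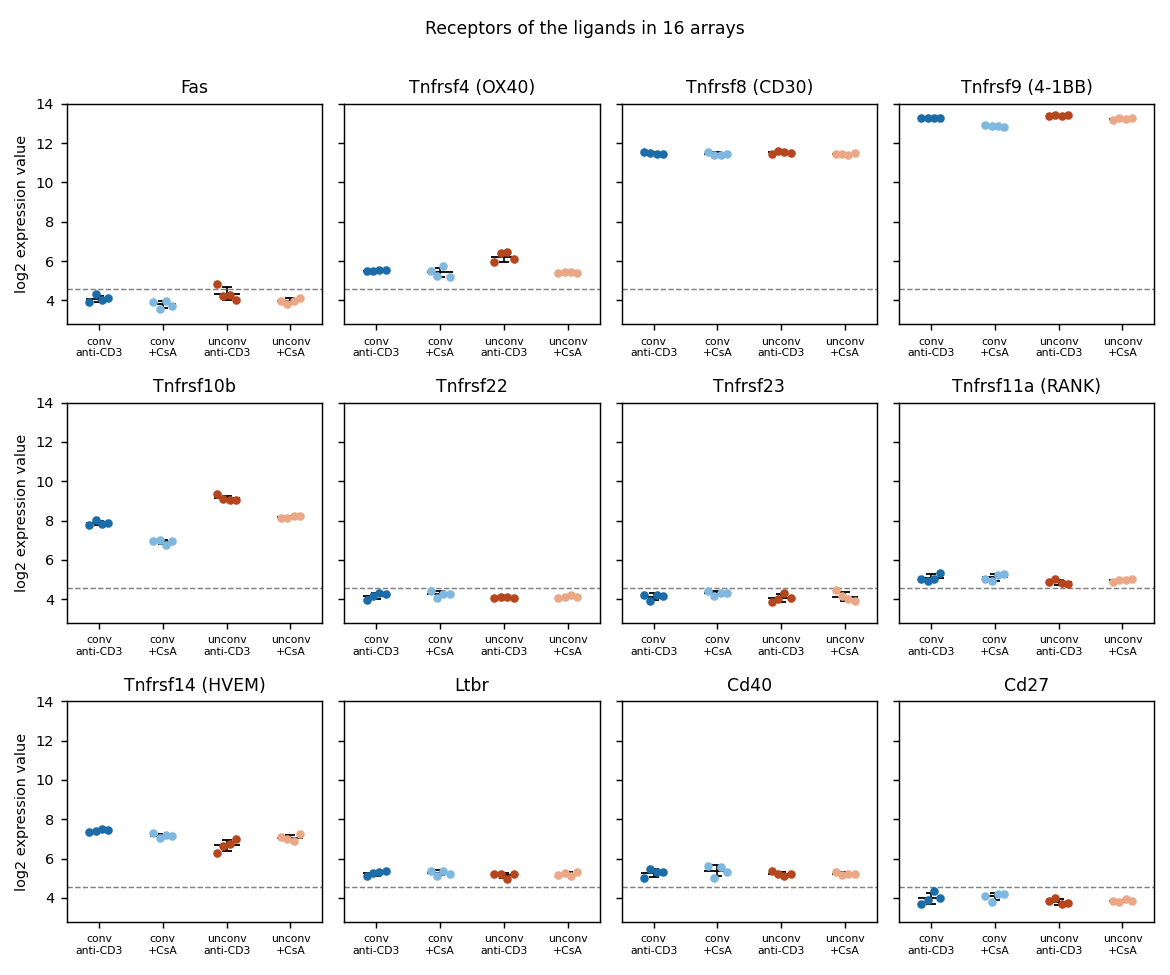
Level of the 12 receptors on every array, as log2 expression value on the y axis, by clone and treatment on the x axis (conv, conventional; unconv, unconventional; +CsA, with cyclosporine A). Points are arrays, bars mean ± SD over n = 4, and the dashed line is the limit of 4.58; Tnfrsf9 and Tnfrsf8 are bright in all groups, Tnfrsf10b is lower with the drug in both clones, and Fas and Cd27 have all group means under the line.

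Of the other TNF superfamily ligands, 7 of 9 had a probe set of their own. In each clone 2 fell and 1 rose with the drug, against 31.4% and 24.9% of all genes called. Lta, lymphotoxin α, read 10.50, 10.32, 10.20 and 10.26 without and 6.50, 6.23, 6.37 and 6.36 with the drug in the conventional clone. The unconventional clone read 7.81, 8.11, 8.31 and 8.33 without and 5.29, 5.42, 5.83 and 5.05 with the drug. The changes were -3.96 (SE 0.13, adjusted p = 1.9e-14) and -2.75 (SE 0.13, adjusted p = 9.0e-12), with no overlap, and differed between clones by 1.21 (SE 0.19, adjusted p = 1.1e-04). The unconventional clone's arrays ended closer to the limit, where differences are compressed. Tnf changed by -0.95 (SE 0.10, adjusted p = 3.4e-07) and -1.34 (SE 0.10, adjusted p = 8.4e-09). Tnfsf13b, which encodes the B cell survival factor BAFF, rose as Tnfsf10 did, by 1.32 (SE 0.08, adjusted p = 6.3e-11) and 2.26 (SE 0.08, adjusted p = 5.8e-14), to 9.45 ± 0.07 and 9.52 ± 0.10 (SD, n = 4). Ltb, Tnfsf15, Tnfsf18 and Eda were not called for the drug. Their differences lay between -0.26 and 0.18.

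Of 15 other TNF receptors, 2 were called lower and 0 higher with the drug in the conventional clone and 3 lower and 2 higher in the unconventional clone, against 31.4% and 24.9% of all genes called. The largest falls were in the unconventional clone. Tnfrsf13b (TACI, a receptor of BAFF) changed by -2.57 (SE 0.16, adjusted p = 3.6e-10) there and by 0.01 (SE 0.16, adjusted p = 0.9871) in the conventional clone. Without the drug Tnfrsf13b lay at 5.22 in the conventional clone and at 7.79 in the unconventional clone. With the drug it lay at 5.23 and 5.22 in the conventional and the unconventional clone. These low levels were above the limit of 4.58, but probe sets differ in background, so they could be background for this probe set. Tnfrsf18 (GITR) changed by -1.44 (SE 0.19, adjusted p = 6.5e-06) in the unconventional clone and by 0.15 (SE 0.19, adjusted p = 0.6246) in the conventional clone. The effects on both differed between the clones (-2.58, SE 0.23, adjusted p = 1.1e-07 for Tnfrsf13b and -1.59, SE 0.26, adjusted p = 1.9e-04 for Tnfrsf18). For Tnfrsf13b the size of the difference is set by the unconventional clone's fall, which may be a lower limit. The conventional clone already stood at the level where that fall ended, so a fall of Tnfrsf13b there could go undetected.

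**Figure D5:**
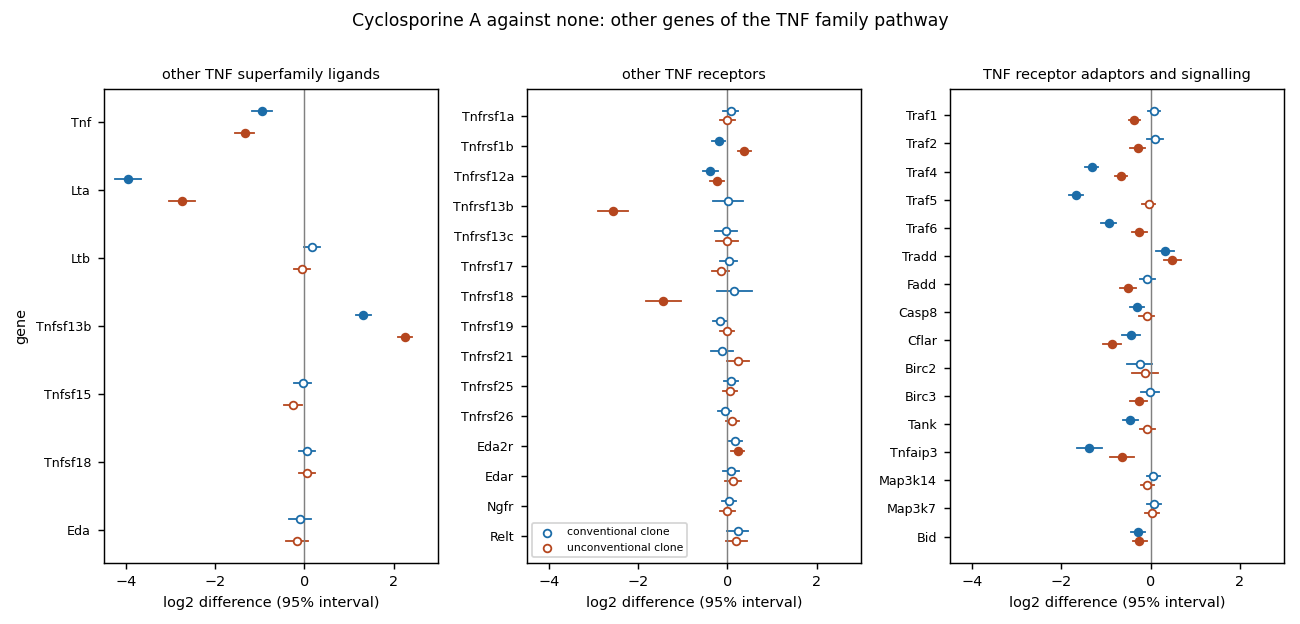
Log2 difference with cyclosporine A against anti-CD3 alone on the x axis for 7 other TNF superfamily ligands, 15 other receptors and 16 adaptor and signalling genes on the y axes, in the conventional (blue) and unconventional (red) clone. Points are estimates, bars 95% intervals, and filled points are called; Lta falls furthest, Tnfsf13b rises, Tnfrsf13b and Tnfrsf18 fall in the unconventional clone and Traf5 in the conventional clone.

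Genes with the most similar pattern were sought for the 6 members whose group means spanned at least 1, among 3367 other genes that did so. Pearson's r over the 16 arrays follows mainly the 4 group means, so it is a description. For Tnfsf4 the closest were the chemokine Ccl9 (r = 0.982), Repin1 (0.978) and Flvcr1 (0.977), each highest where Tnfsf4 was highest. For Tnfrsf11b they were Gadd45a (0.986), Pcx (0.986) and Trnt1 (0.979), each highest in the unconventional clone with anti-CD3 alone. Gadd45a, a stress-response gene, stood at 8.46 there and between 5.71 and 6.88 elsewhere. For Fasl they were Aida (0.993), Ermn (0.992) and Cyth1 (0.991), and for Tnfsf10 Sytl2 (0.988), Acaa2 (0.981) and Trim56 (0.976). The chemokine Ccl3 (0.966) was among the 3 closest to Tnfsf14, after Trim9 (0.975) and Ttc39c (0.970). The closest to Tnfsf9 was the oxysterol receptor gene Gpr183 (0.945), which stood at 7.58 and 5.59 without and with the drug in the conventional clone and at 7.97 and 8.52 in the unconventional clone, followed by Pnpla2 (0.932) and Auh (0.921).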

How the data were processed

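RNA of 16 samples, 4 per group, was measured on arrays. The deposited tables hold 1 log2 value per probe set and array. The submitters' processing notes list Partek 6.2, GCOS and RMA without roles. That the deposited values are log2 was read from their range (2.08 to 14.55). The authors' genome build is not given in the sources used here. RMA compresses differences near background. It is meant to equalise array distributions, but the deposited array medians ran from 5.16 to 5.35. Over all genes the median difference between the clones was -0.07 with anti-CD3 alone and -0.08 with the drug. With quantile normalization these became -0.02 and -0.03.

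Probe sets were named from the platform annotation when they had 1 symbol (21789 of 28853). The brightest probe set per gene left 19938 genes. In R 4.3.3, limma 3.58.1 estimated 4 group means per gene over the 16 arrays, with 12 residual degrees of freedom, for 5 contrasts, two-sided, and was tested on simulated data. Intervals are 95% intervals of the moderated model. Precision is limited by the number of arrays.

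All 10 members and 12 receptors could be named, of other lists up to 4 called genes per contrast, and 3 genes per member for likeness. Markers, uncalled list genes and genomic neighbours outside this rule were named after their values were seen. The members and lists were chosen with earlier results of these data known. Alternatives were other normalizations, a dim-gene filter, other moderation, array weights, fewer groups, averaged probe sets, a replicate block and leaving out each array.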

Additional observations from a re-analysis of the deposited data

Results flagged for a closer look

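Effects of cyclosporine A that differed between the clones, by the test of the difference itself, are given as unconventional minus conventional. Among the 10 members they were Tnfsf4 (3.38, SE 0.14), Tnfsf9 (0.90, SE 0.16) and Tnfrsf11b (-1.80, SE 0.19), and among the 12 receptors Tnfrsf4 (-0.71, SE 0.16) and Tnfrsf14 (0.64, SE 0.16). For Tnfsf4 both groups of the unconventional clone were at background, so the size of the difference is set by the conventional clone's fall. Tnfrsf4 stood at 5.51 and 5.42 in the conventional clone, close to the 5.42 to which the unconventional clone fell. A fall of Tnfrsf4 in the conventional clone could thus go undetected.

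Of 88 groups of 4 arrays checked (10 members and 12 receptors), 6 held an array whose gap to the nearest other array took up most of the group's range (Dixon's test), a rate near the 1 in 20 groups that chance flags. With anti-CD3 alone in the unconventional clone, Tnfsf11 read 7.07 in replicate 4 (nearest 6.90), Tnfrsf10b 9.33 in replicate 1 (nearest 9.09) and Ltbr 4.95 in replicate 3 (nearest 5.20). Without the drug, in the conventional clone, Cd40lg read 3.49 in replicate 4 (nearest 3.31) and Tnfrsf23 read 3.89 in replicate 2 (nearest 4.18). With the drug in the conventional clone, Cd40lg read 3.68 in replicate 3 (nearest 3.33). Cd40lg and Tnfrsf23 are at background.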

How the results depend on the processing

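Over 25 alternatives, 16 of which leave out 1 array, 1188 of 1215 recomputed member differences kept their side of the threshold, 7 lost a call, 20 gained one and 0 called differences changed sign. The counts of members called were 6 and 4 with the drug in the conventional and unconventional clone, 3 for the difference of effects, and 4 and 7 between the clones without and with the drug. With array weights the difference of effects was called for 5 members, adding Tnfsf10 (0.52) and Tnfsf14 (-0.40). Without dim genes, where 5 members were left to test, 4 were called between the clones with the drug. Leaving out an array gave 6 to 6, 4 to 5, 3 to 4, 4 to 5 and 6 to 8 called members in the 5 comparisons. With the replicate number as a block they were 6, 5, 3, 4 and 7: Tnfsf9 gained a call in the unconventional clone (0.30, adjusted p = 0.0393), where the receptor Tnfrsf9 lost one (-0.17, adjusted p = 0.0547). Whether the numbers pair the samples was not settled. Of 24 same-numbered pairs, 2 had deviations correlated over 0.1 (range -0.14 to 0.28, against -0.36 to 0.36 for other pairs). Those of the 2 unconventional groups lay between 0.06 and 0.10, and 7 of 16 arrays correlated best with their own number. For the difference of effects no fit on fewer groups exists. Of 6249 recomputed differences of other named genes, 129 lost and 72 gained a call. Low signal over background limits Tnfsf8, Cd40lg, Cd70, and Tnfsf4 outside the conventional clone without the drug.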

Other observations

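Adaptor and signalling genes downstream of TNF receptors were measured for 16 of 18 listed. With cyclosporine A, 8 were lower and 1 higher in the conventional clone and 9 lower and 1 higher in the unconventional clone, where 31.4% and 24.9% of all genes were called. Their median differences were -0.26 and -0.25. Traf5, an adaptor used by OX40 and CD27 among others, read 7.85, 8.01, 7.82 and 7.75 without and 6.18, 6.37, 6.09 and 6.09 with the drug in the conventional clone. In the unconventional clone it read 7.93, 7.98, 7.89 and 7.85 without and 7.95, 7.88, 7.79 and 7.86 with it. The effects differed by 1.63 (SE 0.11, adjusted p = 1.8e-09). Traf4 fell in both clones (-1.32, SE 0.07, adjusted p = 5.2e-12 and -0.66, SE 0.07, adjusted p = 2.5e-07), as did Tnfaip3, the feedback inhibitor A20 (-1.37, SE 0.13, adjusted p = 5.0e-08 and -0.63, SE 0.13, adjusted p = 9.3e-04).

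Cflar encodes c-FLIP, which blocks caspase-8 at death receptors. It stood at 10.69 ± 0.08 and 10.25 ± 0.08 (SD, n = 4) without and with the drug in the conventional clone and at 9.19 ± 0.18 and 8.33 ± 0.18 (SD, n = 4) in the unconventional clone. It was lower in the unconventional clone by 1.50 (-1.50, SE 0.10, adjusted p = 8.1e-11) with anti-CD3 alone and by 1.92 (-1.92, SE 0.10, adjusted p = 1.1e-12) with the drug. Fasl and Tnfsf10 were lower in that clone under both conditions too, while Tnfrsf10b was higher.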
